A study of Caenorhabditis elegans with 2 samples.

Results

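Transfer RNA (tRNA) genes that stand between protein-coding genes were examined for occupancy by the homeobox transcription factor CEH-9 in Caenorhabditis elegans embryos. All nuclear genes annotated as tRNA were taken, and those lying wholly within the span of a protein-coding gene were set aside, which left 322 of 612 nuclear tRNA genes among 46890 nuclear genes. Of the 322 genes, 3 overlap a coding gene in part and 319 touch none. Each gene was given the strongest peak summit lying within 100 bp of it in the pooled peak list and in the list of each replicate, and a gene without such a summit was kept as unlisted. The rule that chose the genes used the annotation and no measured value, though it was set with earlier results of these data known.

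The peaks come from chromatin immunoprecipitation sequencing (ChIP-seq), in which sheared chromatin is precipitated with an antibody and the recovered DNA is sequenced. Worms of strain OP202, unc-119(ed3) III; wgIs202, stably express from a transgene a CEH-9 whose C-terminal end is fused to GFP-FLAG, and GFP was the target of the antibody. The material was late embryos, mixed in sex and used whole, at 4.75 h after egg bleaching had synchronized them, in 1 group of 2 biological replicates. The series has no second condition, and neither an untagged strain nor the control libraries were analysed here.

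The tRNA genes are read by RNA polymerase III. Their promoter lies inside the gene and consists of an A box near the 5′ end and a B box near the 3′ end, both of which also encode the folded arms of the tRNA. The factor TFIIIC binds these boxes and brings TFIIIB to the DNA just upstream, where the polymerase is loaded, and a run of T after the gene ends transcription. Homeodomain proteins such as CEH-9 are known for binding short AT-rich cores at genes read by RNA polymerase II. Many tRNA genes exist in several identical copies scattered over the genome.

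Members with strong, discordant and absent summits are shown first, since their sequences are the ones compared in the results. Capitals mark the A box and then the B box, each gene is written 5′ to 3′ on its own strand, and the sequences are from the RefSeq WBcel235 assembly, which is ce11. C04A11.t1 (leucine, chrX:13665555-13665673, plus strand) held the strongest summit of all, T07H6.t2 (alanine, chrX:6292278-6292349, minus strand) has identical copies whose ranks differed widely, and F28H6.t1 (arginine, chrX:14115691-14115763, plus strand), F57F5.t1 (isoleucine, chrV:12002176-12002260, plus strand) and R04D3.t2 (valine, chrX:13307034-13307106, plus strand) were the strongest or among the strongest for their amino acids. C02B4.t1 (isoleucine, chrX:12661164-12661247, plus strand) ranked very differently in the replicates, and C49F5.t1 (histidine, chrX:11993521-11993592, minus strand) belongs to a family absent from the pooled list.
C04A11.t1: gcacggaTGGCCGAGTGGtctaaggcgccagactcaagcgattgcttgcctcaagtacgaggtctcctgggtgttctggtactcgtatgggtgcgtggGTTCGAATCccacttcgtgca
T07H6.t2: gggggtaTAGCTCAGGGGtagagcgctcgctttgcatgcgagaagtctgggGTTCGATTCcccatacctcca
F28H6.t1: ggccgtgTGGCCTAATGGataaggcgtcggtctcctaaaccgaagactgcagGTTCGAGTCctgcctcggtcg
F57F5.t1: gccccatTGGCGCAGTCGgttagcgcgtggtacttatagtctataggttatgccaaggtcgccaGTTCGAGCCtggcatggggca
R04D3.t2: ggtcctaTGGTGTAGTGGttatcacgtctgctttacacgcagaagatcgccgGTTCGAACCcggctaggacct
C02B4.t1: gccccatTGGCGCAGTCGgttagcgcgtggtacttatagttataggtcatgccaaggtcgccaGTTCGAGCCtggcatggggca
C49F5.t1: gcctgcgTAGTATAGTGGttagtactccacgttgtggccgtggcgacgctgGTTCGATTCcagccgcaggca

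These genes are short (68 to 120 bp, median 72), and 17 of them hold an intron. They cover 20 amino acids, with 2 genes left without an isotype in the annotation, and the 322 genes have 130 distinct sequences.

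A minority of the genes carried strong summits. In the authors' list of 207 reproducible peaks, which are the 207 strongest of the pooled list, 46 peaks (22.2%) had their summit within 100 bp of one of these tRNA genes. They marked 50 of the 322 genes (15.5%, exact Clopper-Pearson 95% interval 11.8 to 19.95%), against 0.742% of all nuclear genes. The genes marked in this way are called reproducible below. The name stands for membership of that list, and not for a high rank in both replicates. The pooled list has a fixed length of 30000 peaks, in which 136 genes (42.2%) had a summit, against 27.9% of all nuclear genes, and 186 were unlisted. The share of all nuclear genes depends on the mix of gene classes, as it includes 15363 piRNA genes, of which 1.46% had a summit. Among those 136, 68 ranked within the strongest 1000 peaks and 93 within the strongest 5000, and the median rank was 1011.5. No share of all nuclear genes is given at these ranks, so the counts describe these genes only. In whole embryos, strong occupancy in few cells and weak occupancy in many cannot be told apart.

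The reproducible share was close to that of the other tRNA genes. Of the 290 tRNA genes inside coding genes, 41 were reproducible (14.1%, interval 10.3 to 18.7%), and the intervals of these shares overlap, though the difference was not tested. Small nucleolar RNA genes, whose RNAs guide the modification of other RNAs, had 38 of 346 (10.98%, interval 7.89 to 14.8%). The pooled list held a summit for 48.6% of the tRNA genes inside coding genes and 35.3% of these snoRNA genes. The share between coding genes was 42.2%. Other short genes had lower shares: 2 of 261 microRNA genes (0.766%, interval 0.0929 to 2.74%) and 0 of 15363 piRNA genes were reproducible, the latter with an upper bound of 0.024%. All these intervals cover the counting of genes only, since the lists hold no read counts and sequencing depth is unknown. They also treat genes as independent, though genes can share a sequence or a summit.

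The top of the ranking was led by genes on chromosome X. C04A11.t1, the intron-containing leucine gene shown above, ranked 7 in the pooled list and 8 in each replicate. A summit between the glycine gene M02F4.t1 and the glutamate gene M02F4.t2 was at 8 when pooled, at 15 in replicate 1 and at 7 in replicate 2. The replicates thus put these first places in different orders. The lysine gene C33G3.t2 followed at a pooled rank of 13, with 10 in replicate 1 and 23 in replicate 2. Peak signal, the authors' own peak height, is used only for such ranks within a list, and in the pooled list it went from 226 at C04A11.t1 to 73.7 at rte-1, the last of the 50.

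The next genes lay in a narrow band of ranks. T07H6.t2 ranked 33 when pooled, with 40 in replicate 1 and 37 in replicate 2. F28H6.t1 ranked 35, with 96 in replicate 1 and 26 in replicate 2. The isoleucine gene C42D8.t1 ranked 38, with 39 and 44 in the replicates. All 3 genes were within the strongest 207 of both replicates, and their order among themselves differed between the replicates. The proline gene F46G11.t2 ranked 40 (33 and 48), and the lysine gene W03G11.t1 ranked 41 (50 and 36). F57F5.t1 ranked 44 (29 and 67), and it was the strongest of these genes on an autosome. The threonine gene R01H5.t1 came at 46 and the leucine gene C04E7.t1 at 48, with replicate ranks from 42 to 56. R04D3.t2 ranked 49 (27 and 95), the methionine gene F22F1.t6 ranked 51 (65 and 41) and the glycine gene K09C8.t1 ranked 53 (89 and 35). Of these 15 strongest genes, 14 lay on chromosome X, which carries 180 of the 322 genes (55.9%).

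Each replicate alone gave a similar number of strong genes but not always the same ones. Replicate 1 listed 138 of the genes and replicate 2 listed 123. Among the strongest 207 peaks of replicate 1 were the summits of 43 genes (all nuclear genes: 0.708%), and among those of replicate 2 the summits of 37 genes (all nuclear genes: 0.67%). In both replicates 27 genes were among the strongest 207, against 0.397% of all nuclear genes, and 53 were so in at least 1 replicate. None of the 3 lists held a summit for 159 genes, and all 3 held one for 96. For the counts of 138, 123, 53, 159 and 96 no share of all nuclear genes is given, so they describe these genes only.

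Of the 50 reproducible genes, 35 were among the strongest 207 in replicate 1 and 36 in replicate 2, and 6 in neither. Their ranks had a median of 96.5 in replicate 1 and 103 in replicate 2, over the 47 genes that replicate 2 listed. The 3 that replicate 2 did not list are C53C7.t1, Y22D7AL.t3 and T23F1.t1, and each is 1 member of a close pair whose other gene it did list. Ranks in both replicates were correlated over the 100 genes listed in both (Spearman 0.70) and over the 47 reproducible ones (Spearman 0.53), as a description only, since genes share a library and can share a sequence or a summit.

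**Figure D1:**
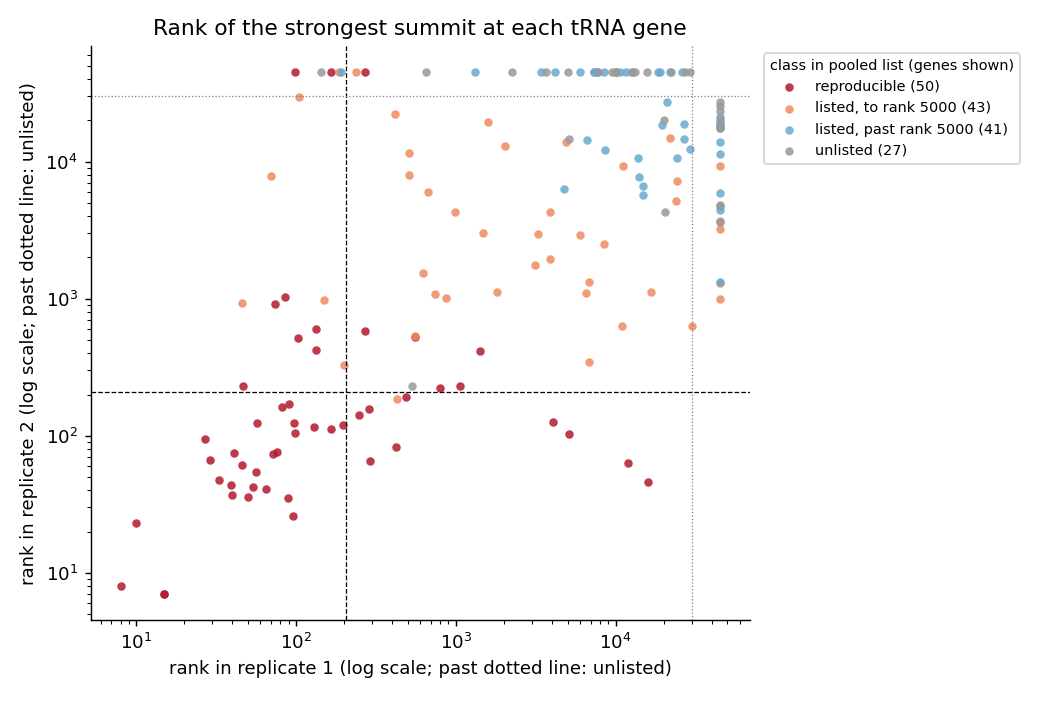
Each point is a tRNA gene, placed by the rank of its strongest summit in replicate 1 (x) and replicate 2 (y), on log scales with lower ranks stronger; genes unlisted in a replicate are drawn past the dotted line and dashed lines mark rank 207. Of the 50 reproducible genes, 27 lie below rank 207 on both axes, while F10C1.t1 and F14B6.t2 lie far to the right, at 15879 and 12016 in replicate 1.

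Some reproducible genes ranked very differently in the 2 replicates. The tyrosine gene K09A11.t1 ranked 85 in replicate 1 and 1036 in replicate 2, C02B4.t1 ranked 74 and 920, and the lysine gene W09G10.t2 ranked 133 and 598. In the opposite direction, the glycine gene F10C1.t1 ranked 15879 in replicate 1 and 46 in replicate 2, the methionine gene F14B6.t2 ranked 12016 and 63, and the proline gene F22B7.t5 ranked 5109 and 103. Among these genes, the gaps in rank were far wider for those stronger in replicate 2. Outside the reproducible list, 8 genes were among the strongest 207 of replicate 1 and 1 of replicate 2, and no gene was so in both. Of the 8, the serine gene F42A10.t2 held the replicate 1 summit of its reproducible neighbour F42A10.t1, which leaves 7 with a summit apart from those of reproducible genes. The arginine gene C15C6.t1, at 70 in replicate 1 and 7877 in replicate 2, and the histidine gene Y7A9D.t1, at 144 in replicate 1 and unlisted in replicate 2, are examples named after their values were seen. The gene of the other kind was the arginine gene C14F11.t1, at 428 in replicate 1 and 187 in replicate 2.

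The end of the reproducible list fell among genes of similar rank. Just inside it were the proline gene C16B8.t3 at rank 201 and the glutamate gene rte-1 at 204, and just outside were the alanine gene ZK622.t1 at 214 and the aspartate gene F41A4.t1 at 302. The latter pair ranked 201 and 150 in replicate 1, ahead of the 1061 and 1411 of the former, and 327 and 971 in replicate 2, where the former ranked 229 and 414. The replicates thus did not separate the pairs in the same way. The distance limit also divided close cases. The glycine gene T10B10.t1 had its summit 96 bp upstream, whereas the nearest pooled summits to the proline gene C16B8.t2 and the isoleucine gene T09B4.t1 lay 107 bp away, and both count as unlisted. C16B8.t2 stands 98 bp from C16B8.t3. Its summit ranked 529 in replicate 1, and in replicate 2 both genes were given the same summit, at rank 229.

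Strong summits were spread over most amino acids and were absent from a few. Proline genes led with 7 of 20 reproducible, followed by methionine with 4 of 13, lysine with 6 of 20, isoleucine with 3 of 11, leucine with 5 of 19 and alanine with 4 of 19. Glutamate and glycine have the most genes, 29 and 28, of which 3 and 4 were reproducible. Valine had 1 of 17, threonine 1 of 19, glutamine 1 of 15, aspartate 1 of 14, asparagine 1 of 8 and phenylalanine 1 of 8, each with its strongest gene between ranks 46 (R01H5.t1, threonine) and 177 (T03E6.t1, glutamine). Serine had 3 of 24, led by F42A10.t1 at rank 57, and tyrosine 2 of 11, led by R11.t1 at rank 76. For most amino acids the counts are too small to order, and genes of 1 amino acid share much of their sequence.

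Cysteine, tryptophan and histidine genes were never reproducible. For cysteine and tryptophan the numbers are small, and at the 15.5% share of all 322 genes a count of 0 does not set them apart. The pooled list held 3 of the 4 cysteine genes and 3 of the 5 tryptophan genes, against 42.2% of all 322. The strongest of 4 cysteine genes, F42D1.t1, ranked 660. Among 5 tryptophan genes the strongest was sup-24, at rank 1356 in the pooled list and 5975 and 2901 in the replicates. It belongs with sup-29 and sup-21 to the genes known from suppressor alleles that read the amber stop codon as tryptophan, and sup-29 ranked 15238 while sup-21 was unlisted in all 3 lists. The pooled list held no summit at any of the 13 histidine genes. In single replicates Y7A9D.t1 ranked 144 and Y65A5A.t4 651 in replicate 1, and C49F5.t1 ranked 25428 in replicate 2, and the other 10 were unlisted throughout. Of the 13 histidine genes, 6 form the F28H6.t2 to F28H6.t7 cluster on chromosome X. The share of words of 36 bases that occur only once in the genome ranged there from 0% (F28H6.t3 and F28H6.t4) to 50.6% (F28H6.t5) and 73.8% (F28H6.t2). It was below 50% at 4 of the 13 genes and above 70% at 8, and its part in the missing summits was not tested.

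**Figure D2:**
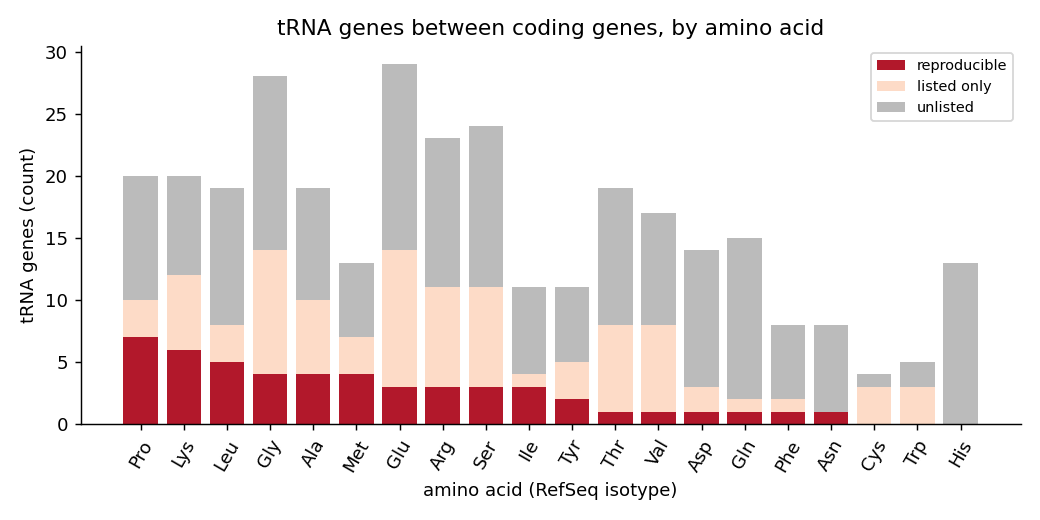
Bars count the tRNA genes of each amino acid that were reproducible, listed only in the pooled list, or unlisted. Proline has the most reproducible genes, 7 of 20, and the bar of 13 histidine genes is wholly unlisted.

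Genes of identical sequence differed widely in rank. The genes fall into 42 families of at least 2 identical members, which hold 234 genes, and 22 of these families have 5 or more members. In 20 of the 22, listed and unlisted genes stood side by side, and in 14 a reproducible gene had an unlisted copy. The other 2 of the 22 were wholly unlisted: 9 histidine genes with the sequence of C49F5.t1, and 5 leucine genes with that of C27A12.t1.

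The proline family of F46G11.t2 has 13 members. F46G11.t2, H06A10.t1, ZK899.t1 and T23F1.t2 were reproducible at ranks 40, 100, 147 and 166. C48C5.t1, C16B8.t1 and C48C5.t3 ranked 5202, 9408 and 23264, and 6 were unlisted. One of the unlisted genes, F46G11.t1, stands only 190 bp from F46G11.t2. In the same way, the glutamate family of rte-1 ran from rank 8 (M02F4.t2) over rte-1 at 204, rte-3 at 17498 and rte-2 at 27568 to rte-4 and rte-5, which the pooled list did not hold.

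**Figure D3:**
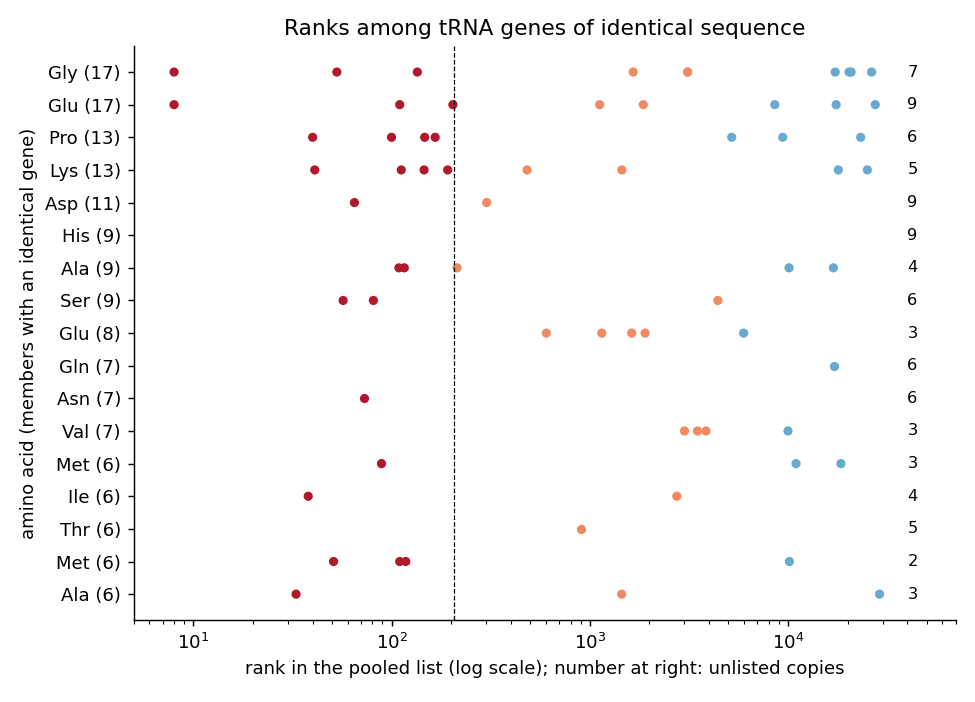
Each line is a family of at least 6 tRNA genes of identical sequence, and points give the rank of each listed member in the pooled list on a log scale; the number at the right counts unlisted members and the dashed line marks rank 207. Members of 1 family span most of the axis, as in the alanine family of T07H6.t2 with ranks from 33 to 28964, and the line of 9 histidine genes has no point.

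The alanine family of T07H6.t2 shows the flanks of such copies. All 6 members have the gene sequence printed above for T07H6.t2, with the same A box and B box. T07H6.t2 ranked 33, with 40 and 37 in the replicates. Y38E10A.t1 ranked 1449, with 512 and 11554 in the replicates. Y37A1B.t1 ranked 28964, with 7295 in replicate 1 and no summit in replicate 2. B0491.t1, B0491.t2 and Y105C5A.t2 were unlisted in all 3 lists, and the B0491 genes stand 424 bp apart. What differs between the 6 genes is the flanking DNA, of which the 50 bases directly upstream are shown, 5′ to 3′ on the gene's strand with G and C in capitals, at chrX:6292350-6292399 (minus), chrII:12678264-12678313 (plus), chrIV:14013877-14013926 (minus), chrII:11334458-11334507 (plus), chrII:11334085-11334134 (minus) and chrIV:15604384-15604433 (minus).
T07H6.t2 upstream: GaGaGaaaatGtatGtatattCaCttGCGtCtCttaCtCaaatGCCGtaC
Y38E10A.t1 upstream: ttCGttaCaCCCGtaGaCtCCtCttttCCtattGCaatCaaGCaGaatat
Y37A1B.t1 upstream: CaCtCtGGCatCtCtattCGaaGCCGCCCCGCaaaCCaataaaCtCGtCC
B0491.t1 upstream: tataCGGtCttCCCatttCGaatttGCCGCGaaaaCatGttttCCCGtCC
B0491.t2 upstream: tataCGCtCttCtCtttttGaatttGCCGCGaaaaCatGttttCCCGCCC
Y105C5A.t2 upstream: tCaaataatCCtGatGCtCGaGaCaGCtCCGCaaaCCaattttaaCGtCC
The strongest of them, T07H6.t2, had the lowest G and C content (38%), Y38E10A.t1 had 40%, Y37A1B.t1 had 54% and the 3 unlisted genes had 44 to 46%. Among the 3 listed genes the content thus rose as the rank weakened, and the unlisted genes lay within their range.

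The median summit position lay inside the gene. The limit of 100 bp on either side centres the search window on the gene, and this window by itself favours a median there. Over the 136 listed genes the median summit lay 23.5 bp downstream of the 5′ end on the gene's strand, with 48 summits upstream, 68 inside and 20 downstream of the gene. Among the 50 reproducible genes the median was 30 bp, with 14 upstream, 32 inside and 4 downstream. The 42 of them that share no summit with another of these genes had the same median, with 10 upstream, 30 inside and 2 downstream. Genes listed past rank 5000 had 17 upstream, 16 inside and 10 downstream. For the 47 reproducible genes with a summit in both replicates, the replicate summits were a median of 36 bp apart and at most 179 bp, so positions within a gene of this length are not resolved.

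**Figure D4:**
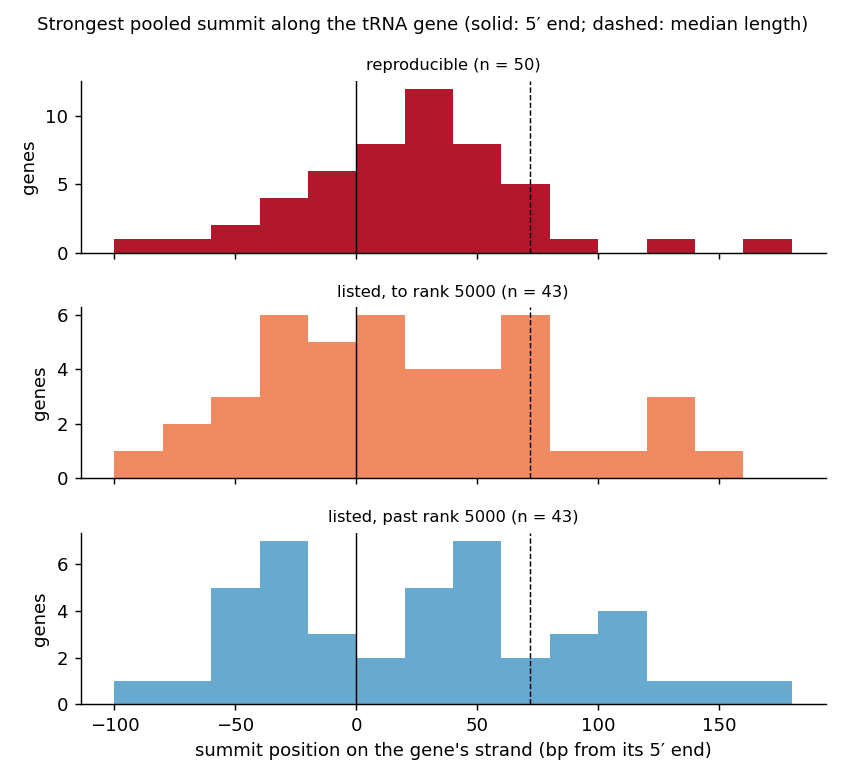
Histograms give the position of the strongest pooled summit along the gene's strand, in bp from the 5′ end, for reproducible genes, genes listed to rank 5000 and genes listed past rank 5000. The summits of reproducible genes gather inside the gene, with 32 of 50 summits there, and the genes past rank 5000 spread over the whole window with 16 of 43 inside.

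Neighbouring genes sometimes shared 1 summit, so they cannot be counted as separate events. This held for 4 pairs of reproducible genes. M02F4.t1 and M02F4.t2 point away from each other, and so do the serine genes C53C7.t1 and C53C7.t2 (rank 81). The methionine gene Y22D7AL.t3 and the glutamate gene Y22D7AL.t4 face each other (rank 110), as do the lysine gene T23F1.t1 and the proline gene T23F1.t2 (rank 166). The stretch between the M02F4 genes, chrX:3036048-3036163 on the plus strand, holds the second strongest summit at these genes and lies outside both gene bodies. It is printed from the 5′ end of M02F4.t2, which is read leftward, to that of M02F4.t1, with 11 bases centred on the pooled summit in capitals.
M02F4.t2 to M02F4.t1: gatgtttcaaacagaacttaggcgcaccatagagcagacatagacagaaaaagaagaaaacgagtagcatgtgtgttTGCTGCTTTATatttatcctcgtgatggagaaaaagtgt
The summit lay 34 bp upstream of M02F4.t1 and 83 bp upstream of M02F4.t2 in the pooled data and replicate 1, and 19 and 98 bp upstream in replicate 2.

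The promoter elements inside the gene were present nearly everywhere and did not separate strong genes from unlisted ones. Since the boxes also encode the folded arms of the tRNA, genes annotated as tRNA would carry them in any class. Their presence therefore cannot show whether they matter for occupancy. The B box was searched on the gene strand as GATCAANNC, GATCGANNC, GTTCAANNC or GTTCGANNC, and 318 of 322 genes (98.8%) had it. It was in 50 of 50 reproducible genes and in 183 of 186 unlisted ones (98.4%). The A box, searched by its consensus, was in 50 of 50 and in 178 of 186 (95.7%). A run of TTTT in the 40 bases after the gene was in 50 of 50 and in 181 of 186 (97.3%). In 29035 windows of 73 bp at pooled summits over 1000 bp from tRNA, snoRNA, snRNA and rRNA genes, searched on both strands for the boxes, the shares were 3.01% for the B box, 8.92% for the A box and 36.7% for TTTT in 40 bases.

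The frequency of the homeodomain core TAATTA did not follow the rank. In windows of 273 bp centred on the gene, both strands together, it occurred at 1 of 50 reproducible genes (2.00%), 5 of 43 genes listed to rank 5000 (11.6%), 1 of 43 listed past it (2.33%) and 21 of 186 unlisted genes (11.3%), against 9.74% of the same windows at the 29035 other summits. The related core TAATGG occurred at 8 of 50, 8 of 43, 10 of 43 and 34 of 186 in the same order (16.0, 18.6, 23.3 and 18.3%), against 7.99%. It can overlap the A box, as in F28H6.t1 above. The windows of the reproducible genes had a median G and C content of 43.6% and those of the unlisted genes 39.6%, and the part of this in the core counts was not tested.

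Listed genes stood farther from other tRNA genes than unlisted ones, but the distance did not follow the rank among them. The distance to the next tRNA gene had a median of 6717 bp for reproducible genes, 12600 bp for genes listed to rank 5000, 2656 bp for those past it and 729.5 bp for unlisted genes. Of 129 genes more than 5000 bp from the next, 28 were reproducible (21.7%). Of 79 genes at 201 to 1000 bp, 3 were (3.80%), and of 69 genes within 200 bp, 13 were (18.8%). These 13 include both genes of each of the 4 reproducible pairs that share a summit. They therefore hold fewer summits than genes, and 18.8% is a share of genes and not of separate events. The pooled list held no summits closer than 199 bp to each other, and 46 of the 186 unlisted genes had another tRNA gene within 200 bp. Where that neighbour was given a summit, this cannot be told apart from no occupancy at the unlisted gene. Some of the 46 had no such summit nearby. F57G8.t1, for example, stands 106 bp from the next tRNA gene, and its nearest pooled summit lay 8670 bp away. The nearest pooled summit lay within 300 bp of 36 unlisted genes and more than 1000 bp from 95.

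The DNA upstream of listed genes was richer in G and C than that of unlisted genes. In the 50 bases before the gene the median content was 46% in reproducible genes, 46% and 44% in genes listed to and past rank 5000, and 38% in unlisted genes, against 35.4% of the genome. None of the 43 genes with 30% or less was reproducible and 4 were listed, whereas 12 of the 60 genes above 50% were reproducible and 38 were listed. In the 10 bases next to the gene the content was equal within a point, 46.0% in reproducible and 46.3% in unlisted genes, and in the farthest 10 it was 49.4% and 36.8%. In the 50 bases after the gene it was 24% and 26%. The gene bodies had medians of 58.9% and 58.3%. A dependence of read recovery on G and C content was not tested.

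**Figure D5:**
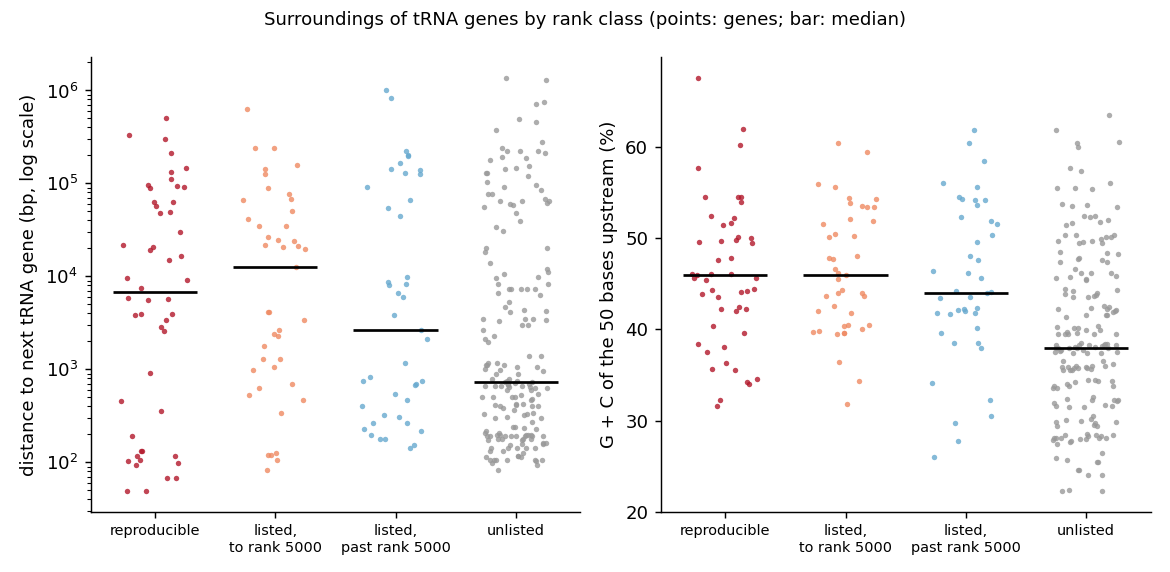
Left, distance from each tRNA gene to the next tRNA gene (bp, log scale); right, G and C content of the 50 bases upstream (%), slightly spread to separate points; points are genes by class and bars are medians. Unlisted genes lie closer to another tRNA gene (median 729.5 bp against 6717 bp) and have the lower upstream content (median 38% against 46%), with wide overlap of the classes.

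Chromosome and coding neighbours were compared in the same way. By chromosome, 31 of 180 genes on X (17.2%, interval 12.01 to 23.5%) and 19 of 142 on autosomes (13.4%, interval 8.25 to 20.1%) were reproducible, and the listed shares were 42.2% and 42.3%. Among autosomes, chromosome III had 7 of 22 (31.8%), V 6 of 30, II 4 of 26, I 1 of 27 and IV 1 of 37 (2.703%). Between coding genes that point away from each other 23 of 112 were reproducible (20.5%), between coding genes that face each other 8 of 53 (15.1%), and between coding genes read in the same direction 19 of 157 (12.1%). The listed shares in this order were 53.6%, 37.7% and 35.7%. Genes with an intron made up 5 of the 50 reproducible genes and 17 of all 322. The 5 are C04A11.t1, F57F5.t1, R11.t1, K09A11.t1 and C02B4.t1.

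Copy number gave no simple order. Of 75 genes with a sequence found once in the genome, 8 were reproducible (10.7%), of 42 with 2 to 5 copies 11 were (26.2%), and of 54 with more than 20 copies 12 were (22.2%). Reads from within identical copies cannot be placed by the gene alone, and the share of unique words of 36 bases, counted over the gene with 100 bp of flank on either side, had a median of 80.4% in reproducible and 79.7% in unlisted genes. It was below 50% in 13 genes, all of them unlisted.

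Other genes of the pathway were scored within 100 bp for RNA genes and within 1000 bp of a start for coding genes, so the kinds are not compared. Of 7 genes for the RNAs of RNase P, RNase MRP and the signal recognition particle, 3 were reproducible, against 0.742% of all nuclear genes. These were rpr-1, the RNase P RNA that trims the 5′ end of tRNA precursors, at rank 26, mrpr-1 at 59 and srpr-2.2 at 122. All 7 had a pooled summit, against 27.9% of all nuclear genes. None of 16 annotated 5S ribosomal RNA genes was listed, and 14 of them had less than 50% unique words. Among 8 protein-coding genes of the polymerase III machinery none had a reproducible summit, against 0.626% of all 19973 protein-coding genes, and the best was rpc-2, a subunit of the polymerase, at rank 10103. Among 20 aminoacyl-tRNA synthetase genes, whose enzymes charge tRNA with amino acids, none did either, and at that background neither count of 0 sets these genes apart. The best was aars-2, the alanine enzyme, at rank 1023. A pooled summit lay within 1000 bp of a start at 6 of the 8 machinery genes and 16 of the 20 synthetase genes. The share of all protein-coding genes was 50.5%, and the difference was not tested.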

How the data were processed

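Per the labels, the authors derived a relaxed peak list for each replicate and for the pooled replicates against a control, and from these 3 a list passing an irreproducible discovery rate threshold; the 4 lists in ce11 were used, and those in ce10 were not. Each peak has a signal value that the authors deposited, used here only by rank within a list because its scale differs between lists, and a −log10 q-value, which ran from 1.88 to 2.49 at the 50 reproducible genes. Aligner, caller and threshold: not given in the sources used here. Depth is unknown, so intervals cover the counting of genes only.

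Genes came from the Ensembl WBcel235 annotation, and isotypes and sequence from RefSeq. Summits were assigned within 100 bp. The analysis described 1 group and made no test. Named genes were the 15 strongest, the strongest of each amino acid, those at the edges of the list and of the distance limit, and those of largest replicate difference; others were named after their values were seen. Members, lists and motifs were chosen with earlier results of these data known. Summit assignment was tested on simulated data. Of the listed pathway names, vars-2 had no match. Python 3.11.15, numpy 2.4.6, pandas 2.3.3, scipy 1.17.1 and matplotlib 3.10.9 were used.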

Additional observations from a re-analysis of the deposited data

How the results depend on the processing

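The count of 50 reproducible genes stayed within 1.5 times under summit limits of 50 bp (45) and 200 bp (55), peak overlap (56), the strongest 400 pooled peaks (59), and without genes that have a tRNA gene within 1000 bp (34 of 174). It was 28 in the stronger part of the reproducible list, which has fewer peaks. With the strongest gene kept of each of 130 identical sequences, a choice that uses the outcome, it was 33 (25.4%), and with the first by position, chosen after seeing the data, 17 (13.1%). Leaving out a replicate gave 37 to 43. The median listed rank of 1011.5 became 1628 with the limit at 200 bp, 30001 with unlisted genes placed last, and 1126 to 1530.5 without a replicate. The median summit position of 23.5 bp became 30 bp over reproducible genes and 16 to 18 bp without a replicate. The B box share of 98.8% became 96.0% with GTTCNA alone. The 38 reproducible snoRNA genes became 21 within 50 bp, and the cause was not tested. The difference in median upstream G and C content, unlisted minus reproducible, was -8 percentage points and -6 to -8 under 4 alternatives chosen after seeing the data, of which 1 also kept the strongest gene per sequence. No paired analysis was possible because the series has 1 group. With 2 replicates, no counts and unknown depth, unlisted does not mean unoccupied.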
